A study of Mus musculus with 6 samples.

Results

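The mitochondrial ribosomal protein genes are the nuclear genes for the protein subunits of the mitochondrial ribosome. They were taken as every protein-coding gene of the count table whose mouse symbol begins with Mrpl or Mrps, a rule that uses no measured value. It found 78 of the 27179 gene IDs in the table, and 77 of the 78 were among the 13505 genes with enough counts to test. By the current structural assignment 51 members belong to the large subunit, including Mrps30 and Mrps18a despite their symbols, and 26 belong to the small subunit. The remaining member, Mrps36, was named as a ribosomal protein but is now known as a component of the 2-oxoglutarate dehydrogenase complex. The study sequenced RNA from calvarial osteoblasts, the bone-forming cells of the skull vault, of C57Bl/6J mouse pups at 5 days of age. There were 3 libraries with the genotype label Cdc73/Hrpt2 KO, a conditional deletion of the gene for the Paf1 complex subunit parafibromin, and 3 libraries labelled wildtype. Cells of both groups were released with collagenase and sorted in the same way for GFP, a transgene switched on by Osteocalcin-Cre, whose promoter is active in mature osteoblasts. The labels do not give the sex of the pups, the number pooled per library or the exons deleted, so the spread between libraries of a group may be partly technical.

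Mitochondrial ribosomes translate only the handful of mRNAs that the mitochondrial genome encodes, all of them for subunits of the respiratory chain and ATP synthase. Their rRNAs are transcribed inside the organelle from mt-Rnr1 and mt-Rnr2, whereas all their proteins are made in the cytosol from nuclear transcripts and imported. Some of these proteins have a counterpart in bacterial ribosomes and others were added during the evolution of mitochondria, and inherited loss of several of them impairs oxidative phosphorylation in tissues with a high energy demand.

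The members are scattered over 17 chromosomes. Promoter windows of 300 bases (250 before and 50 after the start of transcription; RefSeq, build GRCm38.p6, which shares its coordinates with mm10) were given for 69 of the 78 members. The letters CCGGAAG, the core of the site bound by ETS factors such as GABP, occurred on either strand in 25 of these 69 windows (36.2%), against 11.7% of the windows of all 18458 genes of the table that had one and 17.9% of those of the genes tested. The following stretches lie upstream of the members' RefSeq spans and hold no exon of the RefSeq-linked transcripts. They are printed 5′ to 3′ on the strand of the gene, and capitals mark the letters of any motif searched. The first 5 show the ETS letters or their complement CTTCCGG in members described below, Mrpl10 shows the NRF1 letters GCATGCGC, and Mrpl37 has CCAAT and GC box letters in place of either. Mrpl46 shows the whole space between exons of 2 members that are transcribed away from each other, Mrpl46 and Mrps11.
Mrpl34: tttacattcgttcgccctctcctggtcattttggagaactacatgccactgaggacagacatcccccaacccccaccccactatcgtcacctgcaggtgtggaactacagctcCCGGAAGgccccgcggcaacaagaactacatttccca
Mrps27: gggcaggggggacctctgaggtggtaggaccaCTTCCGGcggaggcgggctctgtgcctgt
Mrps18a: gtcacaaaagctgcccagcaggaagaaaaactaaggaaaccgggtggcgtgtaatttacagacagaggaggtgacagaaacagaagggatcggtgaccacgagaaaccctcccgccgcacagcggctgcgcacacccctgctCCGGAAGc
Mrps22: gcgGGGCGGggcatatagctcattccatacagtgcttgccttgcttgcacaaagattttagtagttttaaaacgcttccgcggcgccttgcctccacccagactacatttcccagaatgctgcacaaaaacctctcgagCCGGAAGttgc
Mrpl52: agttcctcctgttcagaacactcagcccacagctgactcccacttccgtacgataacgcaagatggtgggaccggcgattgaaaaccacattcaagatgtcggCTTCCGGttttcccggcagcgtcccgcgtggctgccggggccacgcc
Mrpl10: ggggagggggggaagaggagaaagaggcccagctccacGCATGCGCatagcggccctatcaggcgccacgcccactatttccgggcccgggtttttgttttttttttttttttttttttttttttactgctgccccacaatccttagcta
Mrpl37: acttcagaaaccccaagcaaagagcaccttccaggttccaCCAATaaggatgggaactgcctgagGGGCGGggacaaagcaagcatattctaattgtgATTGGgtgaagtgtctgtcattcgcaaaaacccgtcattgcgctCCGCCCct
Mrpl46: gcccctcgccggcccgcgttgcctcatgg
The stretches lie at chr8:71464776-71464925 (plus strand) for Mrpl34, chr13:99344706-99344766 (plus) for Mrps27, chr17:46110836-46110985 (plus) for Mrps18a, chr9:98601680-98601829 (minus) for Mrps22, chr14:54426759-54426908 (plus) for Mrpl52, chr11:97041410-97041559 (plus) for Mrpl10, chr4:107066869-107067018 (minus) for Mrpl37 and chr7:78783090-78783118 (minus) for Mrpl46.

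Library totals ranged from 13591925 to 20993962 assigned counts, and the median count of the tested members was 142 to 278 in a library. Levels are given as CPM, a gene's counts relative to a fixed library total after scaling by the trimmed mean of M values (TMM). Cdc73 itself was at 13.97, 14.7 and 14.4 CPM in knockout 1, 2 and 3 and at 20.5, 12.8 and 21.7 CPM in wildtype 1, 2 and 3. Wildtype 2 was below every knockout library, and the log2 fold change of -0.36 ± 0.22 (SE) had an unadjusted p of 0.134. Total counts over the gene therefore did not separate the groups, and knockout and wildtype stand here for the libraries so labelled. Osteoblast markers were abundant in all 6 libraries (Col1a1 alone took 13.9% to 20.0% of counts).

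Transcripts of the mitochondrial ribosomal proteins were lower in knockout osteoblasts by a modest and even amount, but no single member passed the test across all genes. The summed level of the 78 members was 887.9, 763.6 and 919.1 CPM in knockout 1, 2 and 3, and 864.6, 1153 and 1433 CPM in wildtype 1, 2 and 3. Wildtype 2 and wildtype 3 were above all knockout libraries, and wildtype 1 lay inside the knockout range. The fold change was negative for 73 of the 77 tested members, against 50.7% of all genes tested, and its median was -0.44 on the log2 scale, against -0.01 for all genes tested. The middle range of the members was narrow, from -0.53 at the lower quartile to -0.29 at the upper quartile. By edgeR's quasi-likelihood test 19 members were lower at an unadjusted p under 0.05, where 6.35% of all genes were, and 0 members were higher, where 8.26% of all genes were. All knockout libraries were below all wildtype libraries for 14 members (9.81% of all genes) and above them for 0 members (10.6% of all genes). After Benjamini-Hochberg adjustment over all genes, edgeR called 0% of genes in either direction at 0.05, and the smallest adjusted p of a member was 0.273. DESeq2 called 217 genes higher and 31 lower but no member, with a smallest adjusted p of 0.064. In bulk RNA, fewer cells of a type and less RNA per cell cannot be told apart.

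**Figure D1:**
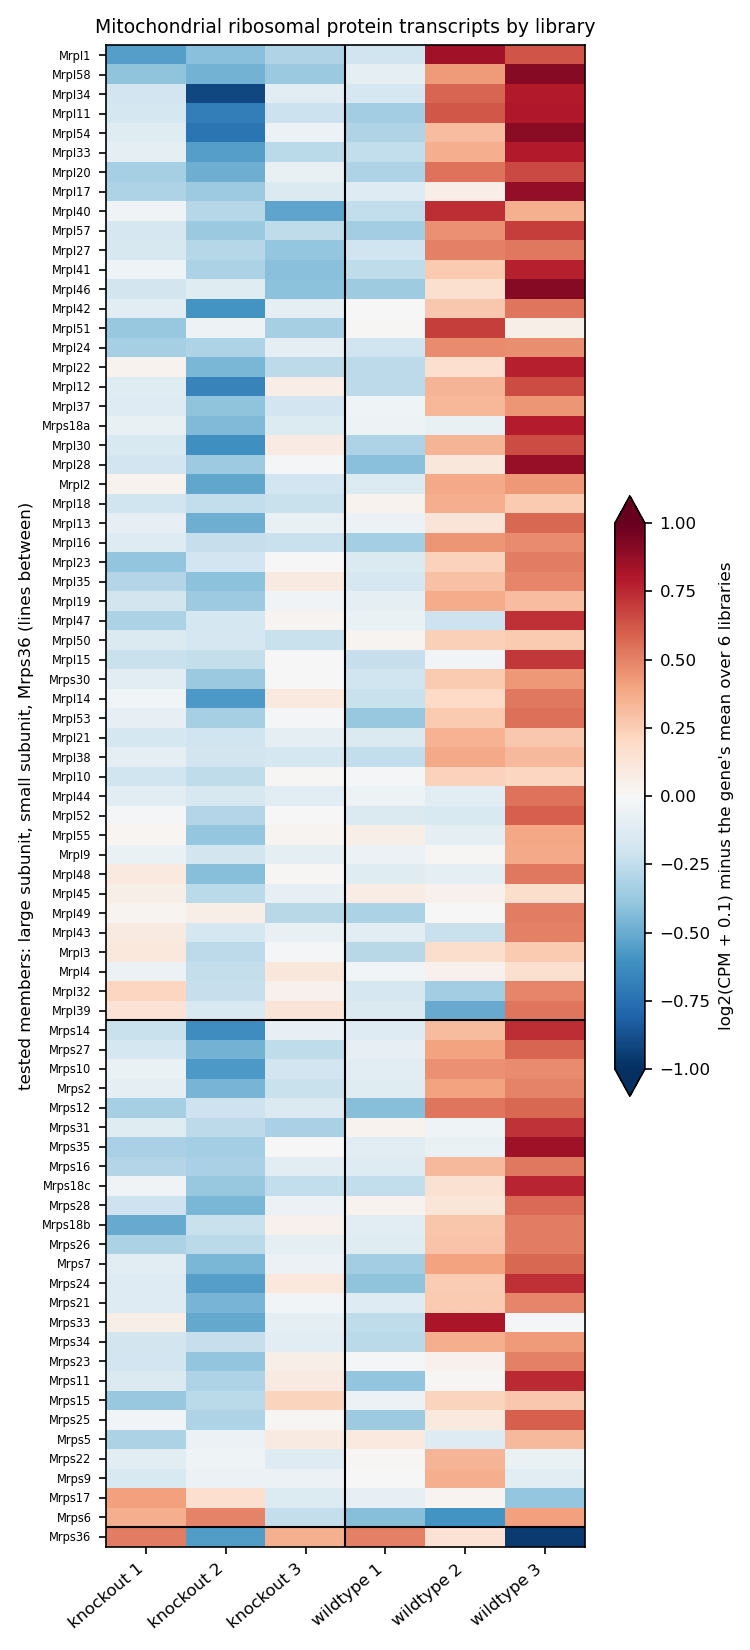
Heat map of the 77 tested members (rows: large subunit above, then small subunit, then Mrps36, each ordered by fold change) in the 6 libraries (columns), coloured by log2(CPM + 0.1) minus the gene's mean over the 6 libraries, with colours saturating at 1 in either direction. Wildtype 3 was the highest library for 62 members and knockout 2 the lowest for 44, while the column of wildtype 1 looks like those of the knockouts.

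Among large-subunit proteins 49 of 50 tested members were negative (median log2 fold change -0.44), and 13 had an unadjusted p under 0.05. Mrpl58 (gene ID 68572, chr11:115403724-115412674), a peptidyl-tRNA hydrolase built into the central protuberance that can free stalled ribosomes, had the smallest p of all members. It was at 11.9, 11.3 and 12.2 CPM in the knockout libraries and at 14.8, 21.3 and 29.7 CPM in the wildtype libraries. Every wildtype library was above every knockout library, and the log2 fold change was -0.89 ± 0.25 (SE; unadjusted p = 0.00518; edgeR adjusted p = 0.273). Mrpl1 (gene ID 94061, chr5:96209498-96266727), the protein of the L1 stalk that guides spent tRNA out of the ribosome, had the most negative fold change. Its levels were 4.62, 5.07 and 5.51 CPM in knockout and 5.90, 12.2 and 10.6 CPM in wildtype. The groups did not overlap, although wildtype 1 was only just above knockout 3, and the log2 fold change was -0.91 ± 0.29 (SE; unadjusted p = 0.0109). Mrpl37 (gene ID 56280, chr4:107055874-107066866), a mitochondria-specific protein of the large subunit, was at 19.7, 16.3 and 18.8 CPM in knockout and 20.96, 27.1 and 29.3 CPM in wildtype, again without overlap, a log2 fold change of -0.50 ± 0.18. Mrpl34 (gene ID 94065, chr8:71464926-71465753) was at 7.49, 4.51 and 7.97 CPM in knockout and 7.60, 12.9 and 14.9 CPM in wildtype, so that wildtype 1 lay between knockout 1 and knockout 3.

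The listed structural parts of the large subunit, which cover only some of its members, also had negative medians. The L7/L12 stalk, which recruits and activates the translational GTPases, is represented by Mrpl10, Mrpl11 and Mrpl12. Mrpl11 (gene ID 66419, chr19:4962152-4966995), which forms the base of the stalk, was at 12.4, 8.61 and 12 CPM in knockout and 10.96, 21.5 and 24.4 CPM in wildtype. The 2 higher wildtype libraries were well above all others while wildtype 1 was below 2 of the knockout libraries, and the log2 fold change was -0.78 ± 0.30. Mrpl12, the stalk protein that has also been described as binding the mitochondrial RNA polymerase, was at 14.6, 9.93 and 16.6 CPM in knockout and 13.2, 20.1 and 25.1 CPM in wildtype (-0.50 ± 0.27). Mrpl10, which anchors it, had a log2 fold change of -0.30 ± 0.16. All 6 proteins of the central protuberance, where the large subunit meets the small one, were negative with a median of -0.51, as were the 6 core proteins around the peptidyl transferase centre (median -0.39) and the 5 proteins of the exit tunnel (median -0.43). With wildtype 1 as the only control these medians were 0.007, 0.02 and -0.06, and that of the stalk was 5.56e-05. Mrpl45, an exit-tunnel protein that tethers the ribosome to the inner membrane, had the smallest difference of the tunnel group at -0.19 ± 0.18. Mrpl44, a protein with a ribonuclease III fold and a known disease gene, was nearly level in 5 libraries (3.596, 3.47 and 3.62 CPM in knockout, 3.76 and 3.61 in wildtype 1 and 2) and at 5.73 CPM in wildtype 3. The 29 tested large-subunit proteins with a bacterial counterpart had a median of -0.44 and the 21 mitochondria-specific ones a median of -0.36, a difference that was not tested.

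Small-subunit proteins differed by a similar amount, with 24 of 26 negative, a median of -0.45 and 6 members lower at an unadjusted p under 0.05. Mrps27 (gene ID 218506, chr13:99344767-99415562), a pentatricopeptide-repeat protein of the small subunit, was at 6.77, 5.49 and 6.41 CPM in knockout and 7.21, 10.1 and 11.5 CPM in wildtype. The groups did not overlap, and the log2 fold change was -0.62 ± 0.24 (SE; unadjusted p = 0.0259). The 5 proteins of the decoding site and mRNA path were all negative (median -0.46). Of these, Mrps12, the counterpart of the bacterial protein in which streptomycin resistance arises, was at 6.05, 6.60 and 6.90 CPM in knockout and 5.68, 11.1 and 11.5 CPM in wildtype, so that wildtype 1 was the lowest library of all (-0.53 ± 0.28). Mrps16 and Mrps34, both genes in which mutations cause inherited mitochondrial disease, had log2 fold changes of -0.51 ± 0.21 and -0.37 ± 0.21. Mrps22, another such gene, was nearly level at 5.81, 6.11 and 5.75 CPM in knockout and 6.33, 7.99 and 6.03 CPM in wildtype (-0.20 ± 0.22). Mammals have 3 paralogs of the bacterial S18 protein, of which Mrps18a is built into the large and the other two into the small subunit. Their fold changes were nearly the same, at -0.49 ± 0.26 for Mrps18a, -0.48 ± 0.34 for Mrps18b and -0.49 ± 0.29 for Mrps18c. For Mrps18a the difference came from wildtype 3, at 23.2 CPM, since wildtype 1 and 2 were at 12.93 and 12.72 CPM and the highest knockout library at 12.71 CPM.

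A positive fold change was found for 4 tested members, in each case with overlapping groups. Mrps6 (gene ID 121022, chr16:92058336-92112227) was at 12.8, 14.02 and 8.38 CPM in knockout and 7.34, 6.53 and 13.2 CPM in wildtype, a log2 fold change of 0.38 ± 0.30. Here wildtype 3, the library that was highest for most members, again stood above the other wildtype libraries. The exons of Mrps6 share 159 bases with those of another protein-coding gene, Slc5a3, so its counts from that stretch are uncertain. Mrps17, a small-subunit protein with a bacterial counterpart, was at 3.30, 2.78 and 2.22 CPM in knockout and 2.32, 2.501 and 1.85 CPM in wildtype (0.32 ± 0.35). Mrps17 and Mrps36 were the 2 tested members for which wildtype 3 was the lowest library. Mrps36 was at 0.839, 0.347 and 0.740 CPM in knockout and 0.830, 0.625 and 0.239 CPM in wildtype, resting on 4 to 19 counts per library (0.17 ± 0.68). Mrpl39, a large-subunit protein, was level at 0.02 ± 0.27, and its sign turned with the scaling used: it was negative with upper-quartile factors, with library size alone and with protein-coding totals. Mrpl36, a short protein of the large subunit with a bacterial counterpart, had 0, 0 and 1 counts in knockout and 1, 0 and 0 in wildtype and was too low to test.

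**Figure D2:**
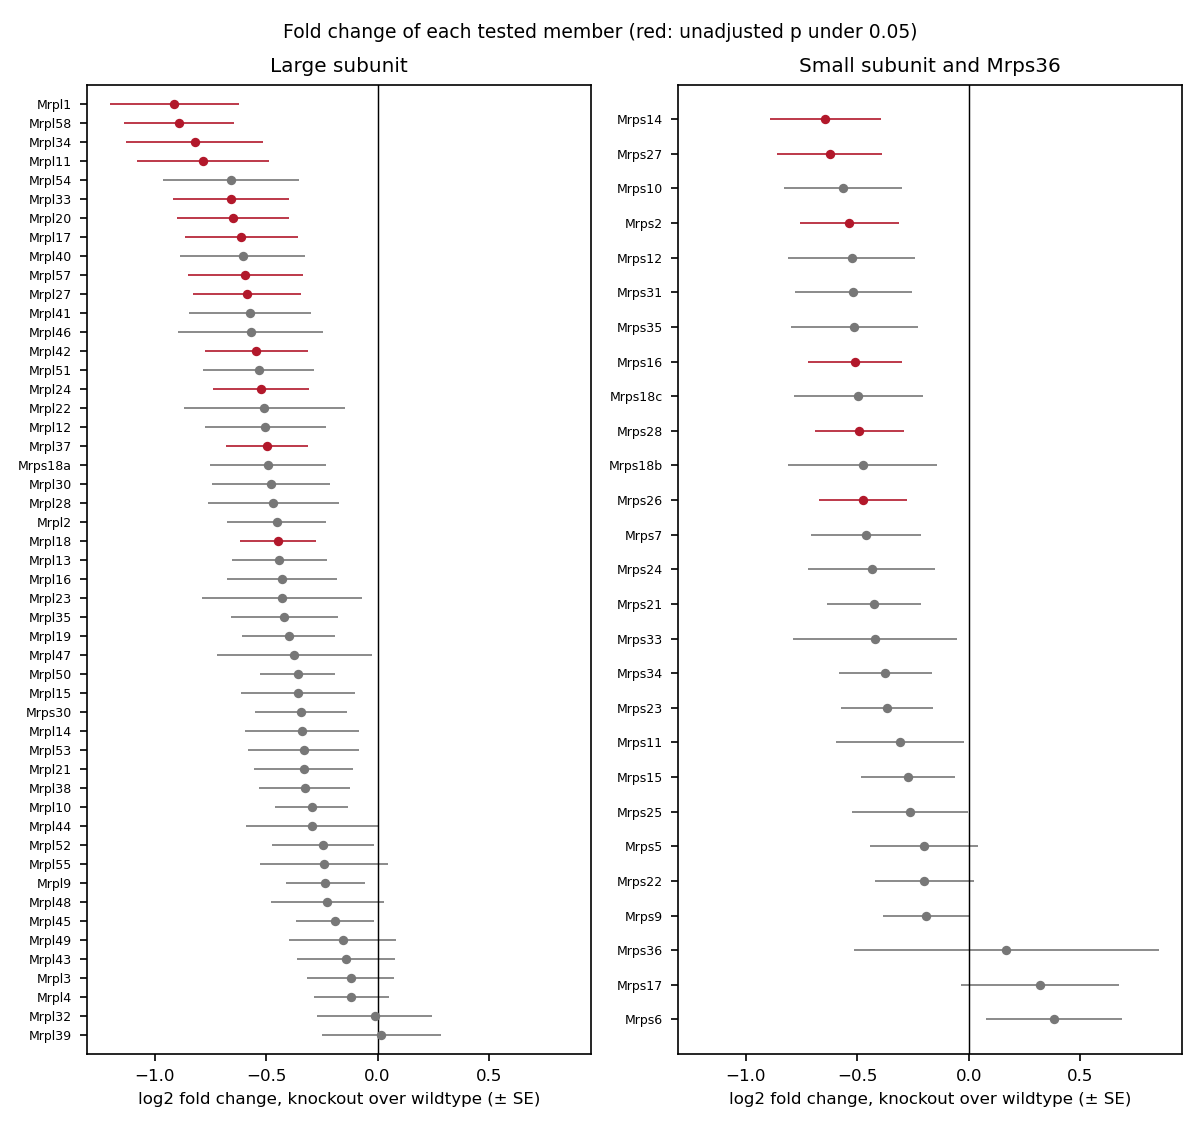
Log2 fold change of each of the 77 tested members, knockout over wildtype (points), with its standard error (bars), for the large subunit on the left and the small subunit with Mrps36 on the right. Red marks the 19 members with an unadjusted p under 0.05, all of which lie left of 0, and 4 points lie right of 0.

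Transcript levels differed far more between members than between groups. Mean level ran from 0.603 CPM for Mrps36 to 32.9 CPM for Mrpl17, with a median of 12.3 CPM. Because longer transcripts collect more counts, levels were compared per kilobase of transcript, using the median length of the RefSeq-linked transcripts of each gene. For some members this length exceeds the RefSeq span of the gene, so lengths and levels per kilobase are approximate. On that scale Mrpl52 was the highest at 59.2 CPM per kb, followed by Mrpl33 at 47.0, Mrps21 at 38.1 and Mrpl20 at 38.0 CPM per kb. The lowest tested members were Mrps36 at 0.949 and Mrpl47 at 1.04 CPM per kb. Mrpl52 was at 23.9, 19.8 and 24.3 CPM in knockout and 21.9, 21.8 and 36.8 CPM in wildtype, so that 5 libraries were alike and wildtype 3 stood above them. Mrpl17, the member with the most CPM, was at 25.3, 24.3 and 28.4 CPM in knockout and 28.7, 32.9 and 57.7 CPM in wildtype, without overlap but with wildtype 1 only just above knockout 3. Mrpl28 and Mrpl30, which are also among the 5 members with the most CPM, had log2 fold changes of -0.47 ± 0.29 and -0.48 ± 0.27. At the lower end Mrpl23 was at 2.16 ± 0.304 CPM in knockout and 2.91 ± 0.676 CPM in wildtype (SD, n = 3). Across the 77 members the fold change showed little relation to length, with a Spearman coefficient of 0.09. Across all 12716 tested genes with a length it was 0.32. Lengths of the members ran from 418 to 7300 bases, with 26 members at 970 or less. How these lengths compare with those of all genes, and their part in the members' median, was not tested. The coefficients are descriptions across genes of the same 6 libraries, and genes are not independent replicates.

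**Figure D3:**
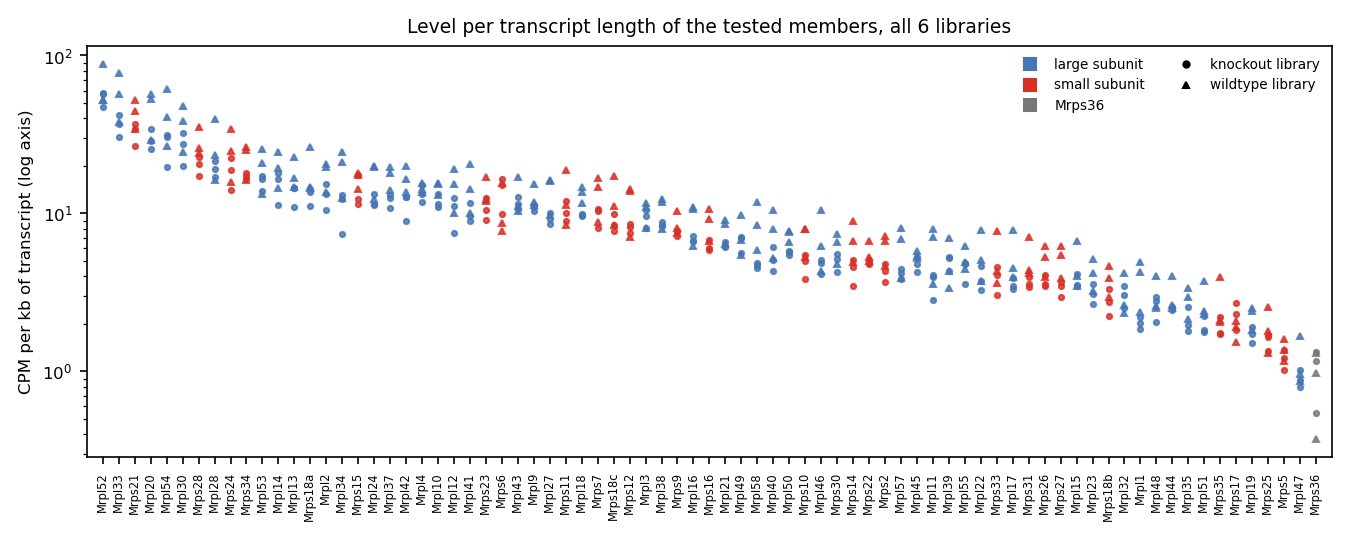
Level of each tested member in CPM per kilobase of transcript (log axis) in each of the 6 libraries, with members ordered by their mean. Colours give the subunit, circles are knockout and triangles wildtype libraries, and members span from about 59.2 CPM per kb for Mrpl52 to 0.949 for Mrps36.

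The difference between the groups rested on wildtype 2 and wildtype 3. With counts drawn down at random to the smallest total, these had counts for 14608 and 15657 genes. Wildtype 1 had 17388, and knockout 1, 2 and 3 had 17778, 17605 and 16950. Deviations from a gene's mean also spread most in wildtype 2 and 3, with an SD over all genes of 0.69 and 0.64. That SD was 0.27 in wildtype 1 and 0.32 to 0.42 in knockout. The part of these library differences in that of the members was not tested. Wildtype 3 was above all 3 knockout libraries for 71 members (92.2%, against 39.4% of all genes tested) and wildtype 2 for 57 members (74%, against 36.6%). Wildtype 1 was above all 3 for 20 members, or 26%, close to the 24.5% of all genes tested. The wildtype libraries were also more spread out. The median coefficient of variation of a member was 28.1% in wildtype and 12.7% in knockout. The coefficient was larger in wildtype for 72 of 77 members, against a lower share, 78.0%, of all genes tested. Without wildtype 1 the median log2 fold change of the members was -0.62, and 47 members were lower at an unadjusted p under 0.05 (13.9% of all genes). In that fit edgeR called 115 genes lower after adjustment, 0.832% of those tested, and Mrpl1, Mrpl11, Mrpl20, Mrpl57 and Mrpl58 were among them, with adjusted p from 0.0367 (Mrpl58) to 0.0461 (Mrpl57). Mrpl20, a core protein of the large subunit, shows the pattern: it was at 21.9, 19.7 and 26.3 CPM in knockout, 22.3 CPM in wildtype 1, and 40.4 and 43.8 CPM in wildtype 2 and 3. Without wildtype 3 the median was -0.26, and 4 members (Mrpl1, Mrpl18, Mrpl51 and Mrpl58) were lower and Mrps6 higher at an unadjusted p under 0.05. In that fit 4.35% of all genes were lower and 5.99% higher. The members' count was near that background for lower genes and below it for higher genes. The fold change there was negative for 67 of 77 members. With wildtype 1 as the only control, 44 of 77 members were negative, the median was -0.05 and 0 members had an unadjusted p under 0.05, where 1.7% of all genes were lower and 3.53% higher. The count of 19 members also moved to 8 without wildtype 2 (5.37% of all genes), to 9, 2 and 11 without knockout 1, 2 and 3 (2.85%, 1.66% and 4.73% of all genes), and to 47 when libraries were scaled by their totals alone (18.5% of all genes). That last scaling shifted the median of all genes to -0.21, and relative to it the members' median was -0.44, as with TMM scaling.

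**Figure D4:**
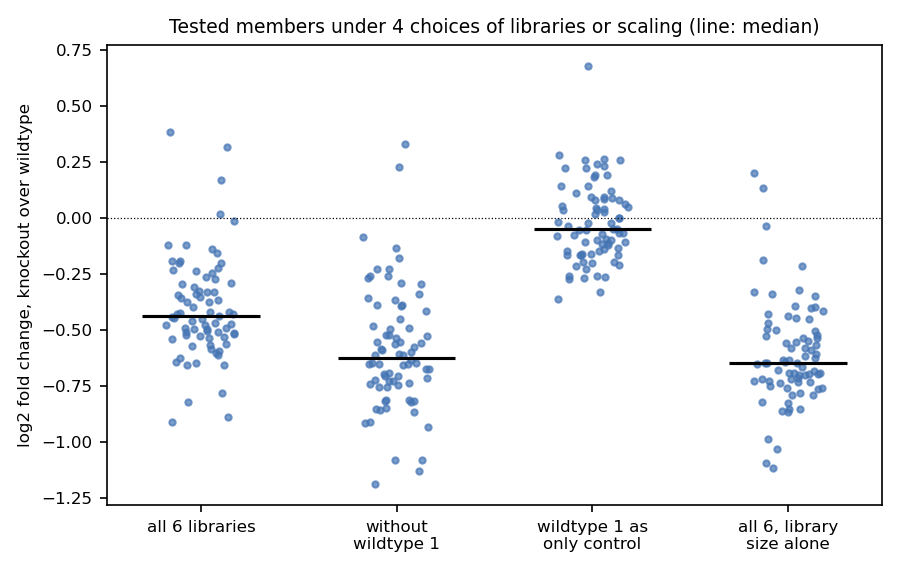
Log2 fold changes of the tested members (points, spread sideways for legibility) with their median (line) for all 6 libraries, without wildtype 1, with wildtype 1 as the only control, and for all 6 libraries scaled by library size alone. The medians are -0.44, -0.62, -0.05 and -0.65.

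Markers of cell types other than osteoblasts were higher in knockout, and for chondrocytes and endothelium wildtype 1 was again the wildtype library nearest to the knockouts. The summed level of 14 chondrocyte markers was 15240 to 29980 CPM in knockout, 12580 CPM in wildtype 1, and 5690 and 4877 CPM in wildtype 2 and 3, with none of the 14 at 0 in any library. Endothelial markers summed to 199.6 to 305.0 CPM in knockout, 197.7 CPM in wildtype 1, and 126.2 and 101.2 CPM in wildtype 2 and 3. Macrophage markers summed to 182.8 to 436.4 CPM in knockout and 106.7 to 161.9 CPM in wildtype, and neutrophil markers to 58.9 to 200.4 CPM against 20.6 to 57.7 CPM. For these 2 lists wildtype 1 did not stand apart from the other wildtype libraries. Erythroid markers overlapped, at 50.1 to 405.1 CPM against 17.5 to 115.2 CPM, with Alas2, Epb42 and Klf1 at 0 in wildtype 2 and Epb42 also in knockout 3. Elane, a neutrophil marker, was likewise at 0 in wildtype 2. All 14 chondrocyte, 12 endothelial, 14 macrophage, 10 neutrophil and 7 tested erythroid markers had positive fold changes, with medians of 2.13, 1.24, 1.16, 1.66 and 1.57. The 12 osteoblast markers had a median of -0.18, with 9 negative. The most abundant feature of the table, gene ID 100861531, to which the tables used here give no name, took 16.7% to 20.7% of counts in knockout and 9.67% to 11.2% in wildtype. The part of these markers and of this feature in the lower level of the members was not tested.

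The ratio of summed large-subunit to small-subunit transcripts was steady across libraries, whereas that of mitochondrial rRNA to members was not. These are ratios of RNA and not of protein, and sums do not show how single members differ. Large-subunit transcripts summed to 2.27 to 2.42 times those of the small subunit in all 6 libraries. The members' sum divided by that of the nuclear oxidative phosphorylation genes was 0.256 ± 0.00692 in knockout and 0.264 ± 0.00943 in wildtype (SD, n = 3). The corresponding ratio to cytosolic ribosomal protein genes was 0.102 ± 0.00924 and 0.101 ± 0.00393 (SD, n = 3). Both of those groups also had mostly negative fold changes, with 76 of 79 tested nuclear oxidative phosphorylation genes negative (median -0.42, 19 lower at an unadjusted p under 0.05) and 82 of 83 tested cytosolic ribosomal protein genes negative (median -0.41, 8 lower), where 6.35% of all genes were lower. Without wildtype 3 the medians were -0.21 and -0.22, and against wildtype 1 alone they were 0.02 and 0.06. Wildtype 1 lay within the knockout range for both, as it did for the members. No test of a difference between these groups and the members was made.

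The rRNAs of the mitochondrial ribosome went the other way. The small-subunit rRNA mt-Rnr1 was at 1128, 1470 and 1642 CPM in knockout and 902.9, 721.7 and 578.2 CPM in wildtype. All knockout libraries were above all wildtype libraries, the log2 fold change was 0.94 ± 0.23 (SE; unadjusted p = 0.00220) and the edgeR adjusted p was 0.273. The large-subunit rRNA mt-Rnr2 was at 1987, 2634 and 2913 CPM in knockout and 1628, 1343 and 1150 CPM in wildtype, also without overlap (0.87 ± 0.22). The rRNA sum divided by the members' sum was 3.51, 5.38 and 4.96 in knockout and 2.93, 1.79 and 1.21 in wildtype. Every knockout library was above every wildtype library in this ratio, and wildtype 1 was the wildtype library nearest to them. The 13 mRNAs of the mitochondrial genome, which these ribosomes translate, were positive in 12 cases with a median of 0.17 (-0.06 with library size alone), and 0 of them had an unadjusted p under 0.05. The labels do not state how rRNA was depleted or mRNA selected for these libraries. Other very abundant features were also higher in knockout. Gene ID 100861531 took 16.7% to 20.7% of counts in knockout and 9.67% to 11.2% in wildtype. Lars2, a synthetase gene described below, had a log2 fold change of 1.199 ± 0.24. Whether these differences and those of the mitochondrial rRNAs share a source was not tested.

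**Figure D5:**
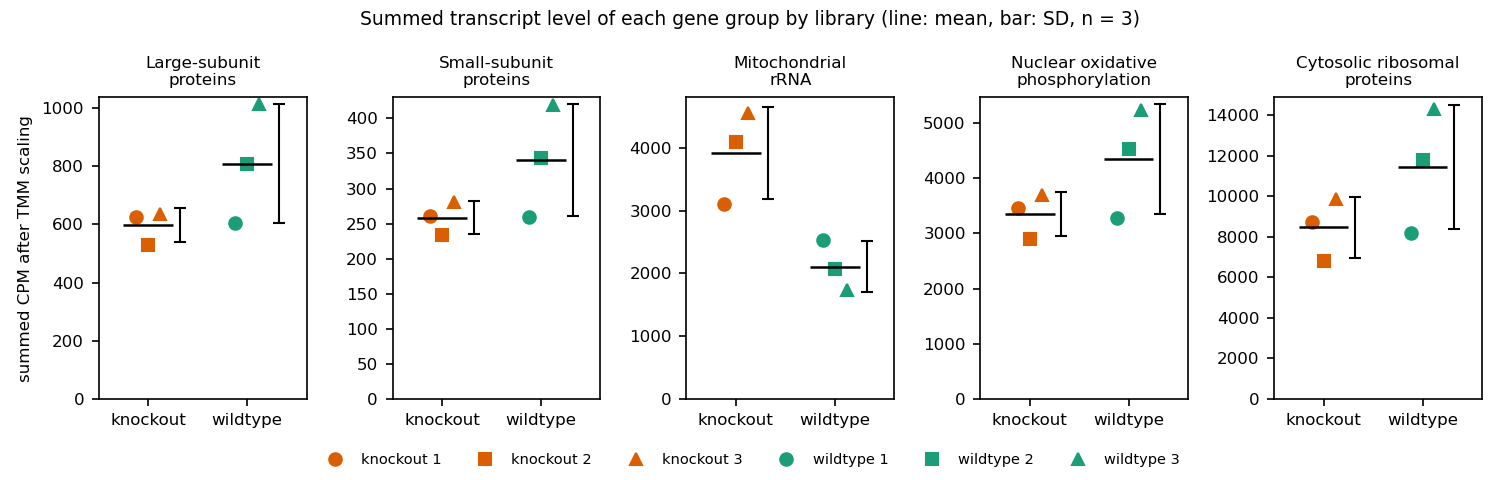
Summed level in CPM of the large-subunit members, the small-subunit members, the 2 mitochondrial rRNAs, the nuclear oxidative phosphorylation genes and the cytosolic ribosomal protein genes in each library (points), with the mean (line) and SD (bar) of each group of 3. In every panel but the rRNA one wildtype 1 lies among the knockout libraries and wildtype 2 and 3 above them, and in the rRNA panel all knockout libraries lie above all wildtype libraries.

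Most other genes of mitochondrial translation had negative fold changes too, with medians nearer to 0 than that of the members. Ribosomal proteins with other symbols were negative in 5 of 5 cases (median -0.32), but leaving out wildtype 3 brought the median to 0.01, and using wildtype 1 alone as control to 0.05. Of these, Gadd45gip1, an assembly-linked protein of the large subunit, was at 6.35, 6.53 and 7.23 CPM in knockout and 6.38, 7.99 and 16.8 CPM in wildtype (-0.63 ± 0.34), while Aurkaip1 and Chchd1 of the small subunit had fold changes of -0.37 ± 0.23 and -0.32 ± 0.26. Of 12 translation factors 9 were negative (median -0.22, or -0.10 if wildtype 3 is left out and -0.07 against wildtype 1 alone). At an unadjusted p under 0.05, which 6.35% of all genes met in the lower direction, 1 factor was lower, a share near that background. It was Tsfm, the exchange factor that recharges the elongation factor Tufm. Its levels were 10.4, 10.2 and 11.5 CPM in knockout and 13.8, 18.9 and 14.4 CPM in wildtype, so that here wildtype 1 too was above every knockout library (-0.55 ± 0.19, unadjusted p = 0.0165). Mtrf1, a release factor homolog, and Mtfmt, which formylates the initiator tRNA, had fold changes of -0.91 ± 0.44 and -0.45 ± 0.26. Of 26 assembly and rRNA-modification factors 22 were negative (median -0.13), and 3 had an unadjusted p under 0.05, all lower and all without overlap. All knockout libraries were below all wildtype libraries for 9.81% of all genes tested. Tfb1m, which methylates the small-subunit rRNA, was at 1.32, 1.597 and 2.301 CPM in knockout and 2.97, 5.14 and 3.28 CPM in wildtype (-1.13 ± 0.39). Rpusd4, a pseudouridine synthase of the large-subunit rRNA, was at -0.66 ± 0.24 and Mtg1, a GTPase of large-subunit assembly, at -0.71 ± 0.29.

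Of the 17 mitochondrial aminoacyl-tRNA synthetases 13 were negative (median -0.32, or -0.14 with wildtype 1 as the only control). At an unadjusted p under 0.05, 4 were lower and 1 higher, where 6.35% and 8.26% of all genes were. All knockout libraries were below all wildtype libraries for 4 synthetases (9.81% of all genes) and above them for 3 (10.6% of all genes). Rars2, which charges mitochondrial tRNA with arginine, was at 5.93, 5.28 and 5.51 CPM in knockout and 7.60, 8.62 and 9.19 CPM in wildtype (-0.60 ± 0.21), and Vars2, the enzyme for valine, at -0.44 ± 0.18, both without overlap. The synthetase higher at that p was Lars2, the enzyme for leucine, at 15910, 20650 and 24520 CPM in knockout and 10260, 7493 and 8862 CPM in wildtype (1.199 ± 0.24). Its mean of 14620 CPM compares with 26.8 CPM for Iars2, the next highest synthetase. Which transcripts the counts under Lars2 come from was not tested. Among 15 regulators of mitochondrial biogenesis 7 were negative and 8 positive (median 0.16, but -0.05 with library size alone), and 0 had an unadjusted p under 0.05. Myc, a transcription factor known for driving ribosomal genes, was at 179.2, 181.0 and 169.1 CPM in knockout and 138.4, 152.3 and 61.6 CPM in wildtype (0.59 ± 0.29), without overlap. Pprc1 and Gabpb1, a PGC-1-related coactivator and the partner subunit of the ETS factor GABP, were at 0.44 ± 0.25 and 0.34 ± 0.20.

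Members with and without the motif letters differed little in fold change. The 25 members with the ETS letters had a median of -0.49 and the 44 without them -0.42. NRF1 letters (GCATGCGC) were in 11.6% of the members' windows against 5.36% of those of the genes tested, and YY1 letters (AAGATGGCG) in 11.6% against 3.17%. GC boxes (GGGCGG) were in 49.3% against 65.3%, CCAAT in 39.1% against 38.9%, the Myc E-box CACGTG in 7.25% against 10.3% and TATAAA in 5.8% against 7.11%. No one of these strings contains another, both strands were searched, and a match describes letters and not a bound site.

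Many members share a promoter region with a neighbour. A protein-coding gene on the other strand began within 1000 bases upstream, or overlapped by at most 200 bases, for 23 of 78 members (29.5%), against 7.92% of all protein-coding genes of the table. Those are 20416 genes and include many too low to test here, and the share among tested genes was not computed. Mrpl46 and Mrps11, which are each other's partner, both count among the 23 members. All 23 of these members were negative. In the 20 tested pairs whose partner is not itself a member, the partner was negative in 16 with a median of -0.16, against -0.47 for the members. Of these partners 1, the proteasome subunit gene Psma2, was lower at an unadjusted p under 0.05. Its member, Mrpl32, was level, with a log2 fold change of -0.01 ± 0.26. In the Mrps27 pair, whose shared stretch is printed above, the partner Ptcd2 was at 7.55, 7.64 and 8.38 CPM in knockout and 8.91, 10.4 and 10.9 CPM in wildtype (-0.36 ± 0.19), again with the groups apart. In the pair Mrpl46 and Mrps11 both genes are members, and their fold changes were -0.57 ± 0.32 and -0.31 ± 0.29. Exons of 13 members overlap exons of another protein-coding gene, where unstranded counting cannot assign reads. Stranded counting cannot do so either where both genes lie on the same strand. These 13 had a median of -0.37 and the 64 other tested members a median of -0.46.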

How the data were processed

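RNA-seq gene counts of 6 libraries (3 labelled knockout, 3 labelled wildtype) were analysed. The authors deposited raw counts per Entrez gene ID, and per the submitters' processing notes CASAVA 1.7, Subread, featureCounts and build mm10 were used. The strand setting and the treatment of reads with several matches, such as those to processed pseudogenes, were stated in none of the sources used here. Symbols came from the RefSeq table of GRCm38.p6 (25275 IDs) or GENCODE M21 (18 IDs), and 1886 of 27179 IDs had none. Genes were filtered with filterByExpr (minimum count 10), scaled by TMM and tested two-sided with edgeR 4.0.16 (R 4.3.3) by the quasi-likelihood test, knockout over wildtype, with Benjamini-Hochberg adjustment over 13505 genes. The SE of a log2 fold change is its size divided by the square root of F. The biological coefficient of variation was 24.2%. The test was checked on simulated data. Alternatives were other scalings and filters, DESeq2 1.42.0, limma 3.58.1 (voom), robust estimates, a replicate block, each library left out, and wildtype 1 as the only control. The labels do not state whether replicate numbers pair the libraries. Correlations of deviations were 0.115, -0.0743 and 0.222 for like numbers and ran from -0.354 to 0.347 for unlike numbers. With 3 libraries a group they cannot settle a pairing. No pair of libraries was a duplicate.

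Named were, among the tested members, the 6 of smallest p in each direction (4 were positive), the 5 highest and 3 lowest in CPM, those without overlap within the first part, those removed by the filter, and a fixed set of 12 with known roles. Outside the members Cdc73, the mitochondrial rRNAs and up to 3 genes of smallest p per list were named. Mrpl10, Mrpl32, Mrpl33, Mrpl45, Mrpl46, Mrpl47, Mrpl57, Mrps11, Mrps21, Mrpl18, Mrpl51, Iars2, Psma2 and Ptcd2 were named after their values were seen. The members, lists, motifs and alternatives were chosen with earlier results of these data known. With 3 libraries a group, an exact permutation test of a single value cannot give a p below 0.1.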

Additional observations from a re-analysis of the deposited data

How the results depend on the processing

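The median of the members was negative under all 18 alternatives, from -0.051 to -0.65, but its size depended on the libraries: with wildtype 1 as the only control it was -0.051. Relative to the median of all genes it was -0.43 with all 6 libraries and ranged from -0.06 (wildtype 1 as the only control) to -0.62 (without wildtype 1). Over the fits that left out a single library it ran from -0.62 to -0.26. Of 446 alternative values of the 25 named members, 422 kept their direction and their side of the threshold and 4 passed it (Mrpl1, Mrpl11, Mrpl20 and Mrpl58 without wildtype 1). The number of genes past the adjusted threshold, 0 with edgeR, was 24 with no filter on low counts, 248 with DESeq2 and 0 to 409 when single libraries were left out (409 without wildtype 1). With the replicate number as a block it was 236, of which 0 were members. In that fit 16 members were lower at an unadjusted p under 0.05. Whether the replicate numbers pair the libraries is not stated in the labels. Members lower at an unadjusted p under 0.05 numbered 47 with library size alone, 9 with limma voom, 2 to 47 when single libraries were left out and 0 with wildtype 1 as the only control. Members higher at that p numbered 0 to 1 when single libraries were left out.

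Directions turned for 20 values. With wildtype 1 as the only control the log2 fold changes became 5.56e-05 for Mrpl11, 0.0493 for Mrpl12, 0.0177 for Mrpl20, 0.232 for Mrpl28, 0.11 for Mrpl30, 0.0439 for Mrpl52, 0.193 for Mrps12, 0.0344 for Mrps18c, 0.0928 for Mrps34 and -0.364 for Mrps36. Mrpl39 became -0.0171 with upper-quartile factors, -0.189 with library size alone and -0.00704 with protein-coding totals. When single libraries were left out Mrpl39 ran from -0.204 to 0.344 (negative without knockout 1, knockout 3, wildtype 1 or wildtype 2), Mrpl52 from -0.394 to 0.0404 and Mrps36 from -0.197 to 0.469 (Mrpl52 and Mrps36 turned without wildtype 3). Mrps36 was also -0.0346 with library size alone. The cause of these turns was not tested. Turns under another scaling came from fits with all 6 libraries, and the rest from fits with fewer libraries. Depth limits Mrps36 and Mrpl36, whose counts per library were 4 to 19 and 0 to 1.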
